A study of Mus musculus with 6 samples.

Results

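The 76 genes described here encode proteins that carry calcium and cyclic AMP signals in the cell. They were chosen by symbol, as every array gene whose name begins with Camk, Ppp3, Prkc, Prka, Itpr, Atp2a or Atp2b, or with Calm, Akap or Ryr and a number, out of 19057 genes with 1 symbol on the array. The rule itself reads symbols and no measured value, but it was drawn up with earlier results of these data known. They have 186 of the array's 45281 probes. The symbols also take in genes of other function, namely 7 subunits of the AMP-activated kinase (Prkaa, Prkab and Prkag), 5 genes of the Itprip and Itprid families, and Prkcsh, which is a subunit of an enzyme that trims sugars and no protein kinase.

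The tumours were mouse gliomas. In the RCAS/tva system used to make them, a bird retrovirus can enter only those cells to which a transgene gives its receptor, tva. HoxA5 tumours (n = 2) arose after PDGFb-expressing DF1 cells mixed with HoxA5-expressing DF1 cells were placed in the right frontal cortex of adult mice. DF1 is a chicken fibroblast line that releases the virus. mCherry tumours (n = 4), the controls, arose in the same way with DF1 cells expressing the fluorescent protein mCherry in place of HoxA5. PDGFb and the loss of 1 or both copies of Ink4a/Arf were thus common to both groups, since all hosts were Ntva-Ink4a/Arf+/- or Ntva-Ink4a/Arf-/-. The Ntva transgene puts the receptor on nestin-expressing progenitors. The strain background mixed FVB/N, C57BL6, BALB/C and 129, and the genotype, the age beyond adult and the host of each tumour are not given in the sources used here, nor is it stated that each tumour came from its own mouse. The p-values therefore measure the spread between these arrays alone. The question behind the comparison was whether added HoxA5 makes a PDGF-driven glioma more aggressive.

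Calcium enters the cytosol from outside the cell or from the endoplasmic reticulum, through inositol trisphosphate (IP3) receptors and ryanodine receptors, and is removed by the pumps SERCA and PMCA. Bound to calmodulin, it switches on the calmodulin-dependent (CaM) kinases and the phosphatase calcineurin, and with diacylglycerol it switches on protein kinase C (PKC). Cyclic AMP releases the catalytic subunits of protein kinase A (PKA) from its regulatory subunits, and anchoring proteins (AKAPs) hold the enzyme in place. Brain is among the tissues richest in these proteins, and many families have an isoform found mainly in neurons beside one found in most cells.

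Each array measured total RNA of 1 tumour. Median intensities were 153.1 and 166.8 for HoxA5 and 136.1 to 156.9 for mCherry, and 19950 to 21904 probes per array had a detection p-value under 0.05. Levels below are normalized log2 intensities, and a difference is the HoxA5 mean minus the mCherry mean on that scale, with its standard error (SE). Probes differ in affinity, so that levels of different genes are not set against each other. Calls rest on limma with Benjamini-Hochberg adjustment over all 12242 genes detected on at least 2 arrays, at an adjusted p under 0.05. The probe for the targeted gene, Hoxa5, was above background on 0 of 2 HoxA5 arrays and 0 of 4 mCherry arrays, so the array gives no check of the added gene. On the progenitor markers Pdgfra, Cspg4, Olig2 and Sox10, taken as the defining markers of this kind of glioma, the mean level reached 10.84 and 11.40 in the HoxA5 tumours, against 10.17, 10.65, 8.92 and 10.86 in the mCherry tumours, and none of the 4 was called (limma adjusted p 0.203 to 0.368).

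A large share of the signalling genes was lower in HoxA5 tumours, led by isoforms known from neurons. Of the 69 that passed the detection filter, 19 (27.5%) were called lower and 0 were called higher, against a background of 4.64% called lower and 1.21% called higher among all genes tested. Unadjusted, 36 had a limma p under 0.05 (24.6% of all genes tested did), with 34 of them lower and 2 (Prkcsh and Prkar2a) higher. The other 7 (Akap14, Akap3, Calm4, Calm5, Ppp3r2, Prkag3 and Prkci) were detected on at most 1 array and were not tested. Of the 69, 58 were detected on all 6 arrays, and these include 18 of the 19 calls. The remaining call, Atp2b3, passed the filter on mCherry arrays alone. The median difference was -0.68 over the 69 genes and 0.07 over all genes tested. The HoxA5 arrays lay below every mCherry array for 37 of the 69 and above every one for 2, against 17.2% and 18.3% of all genes tested.

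Markers of neurons and of myelinating cells were lower on the same arrays. The summed log2 level of the 7 neuron markers tested of 10 listed (Rbfox3, Syt1, Stmn2, Nefm, Slc17a7, Gad1 and Gad2) was 59.8 to 66.4 on the HoxA5 arrays, against 76.5 to 89.3 on the mCherry arrays, and all 7 were called lower. Of 7 myelin genes listed, 6 were tested and all 6 were called lower, with sums of 47.5 to 52.7 on the HoxA5 arrays, against 62.4 to 69.2 on the mCherry arrays. Astrocyte markers had sums of 55.5 to 55.8 on the HoxA5 arrays, against 56.1 to 58.9 on the mCherry arrays, with 1 of 5 (Gja1) called lower. Fibroblast markers went the other way, with 4 of 4 called higher, as did markers of dividing cells, with 2 of 3 called higher. None of the 5 microglial markers (limma adjusted p 0.591 to 0.995) or the 4 endothelial markers (0.413 to 0.837) was called. In bulk tissue, fewer cells of a type and less RNA per cell cannot be told apart, and the part of neuron content in the differences below was not tested.

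The same control tumour was the lowest of the 4 for most genes called lower. The array mCherry 4 had the lowest neuron marker sum of the 4 controls and the lowest value among them for 18 of the 19 genes called (94.7%), against 28.2% of all genes tested. All genes called lower showed it as often (93.8% of 568). Leaving that array out gave 30 calls lower and 1 higher among the signalling genes (19.9% of all genes were then called). The 11 further calls lower were Akap11, Akap6, Akap8l, Camk1d, Camk2g, Ppp3cb, Prkaa2, Prkacb, Prkcb, Prkcd and Ryr3, and the 1 higher was Prkcsh. By contrast, leaving out HoxA5 2 or HoxA5 1 left 1 array in that group. Calls were then few or absent among the signalling genes, and few among all genes tested. The median difference over the signalling genes tested was -0.67 without HoxA5 2 and -0.74 without HoxA5 1. Without mCherry 1 or mCherry 2 in turn, 6 genes were called (Atp2b2, Camk2a, Camk2n1, Camk4, Camkv and Ryr2 each time), and without mCherry 3, 13. Of all genes tested, 1.42%, 2.07% and 4.38% were called without mCherry 1, 2 and 3. All 19 differences kept their sign in each of the 14 alternatives run. The HoxA5 arrays lay below every mCherry array for all 19, so leaving 1 array out could hardly turn a sign. The kept signs are therefore no further support. Counting those omissions and 8 other settings, the calls held in 13 of 14 alternatives for the same 6 genes. They held in 7 to 10 for Akap5, Prkar1b, Ppp3ca, Ppp3r1, Atp2b1, Camk2n2, Atp2a2 and Prkcz, and in 2 to 5 for Calm3, Calm2, Atp2b3, Prkce and Prkca.

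**Figure D1:**
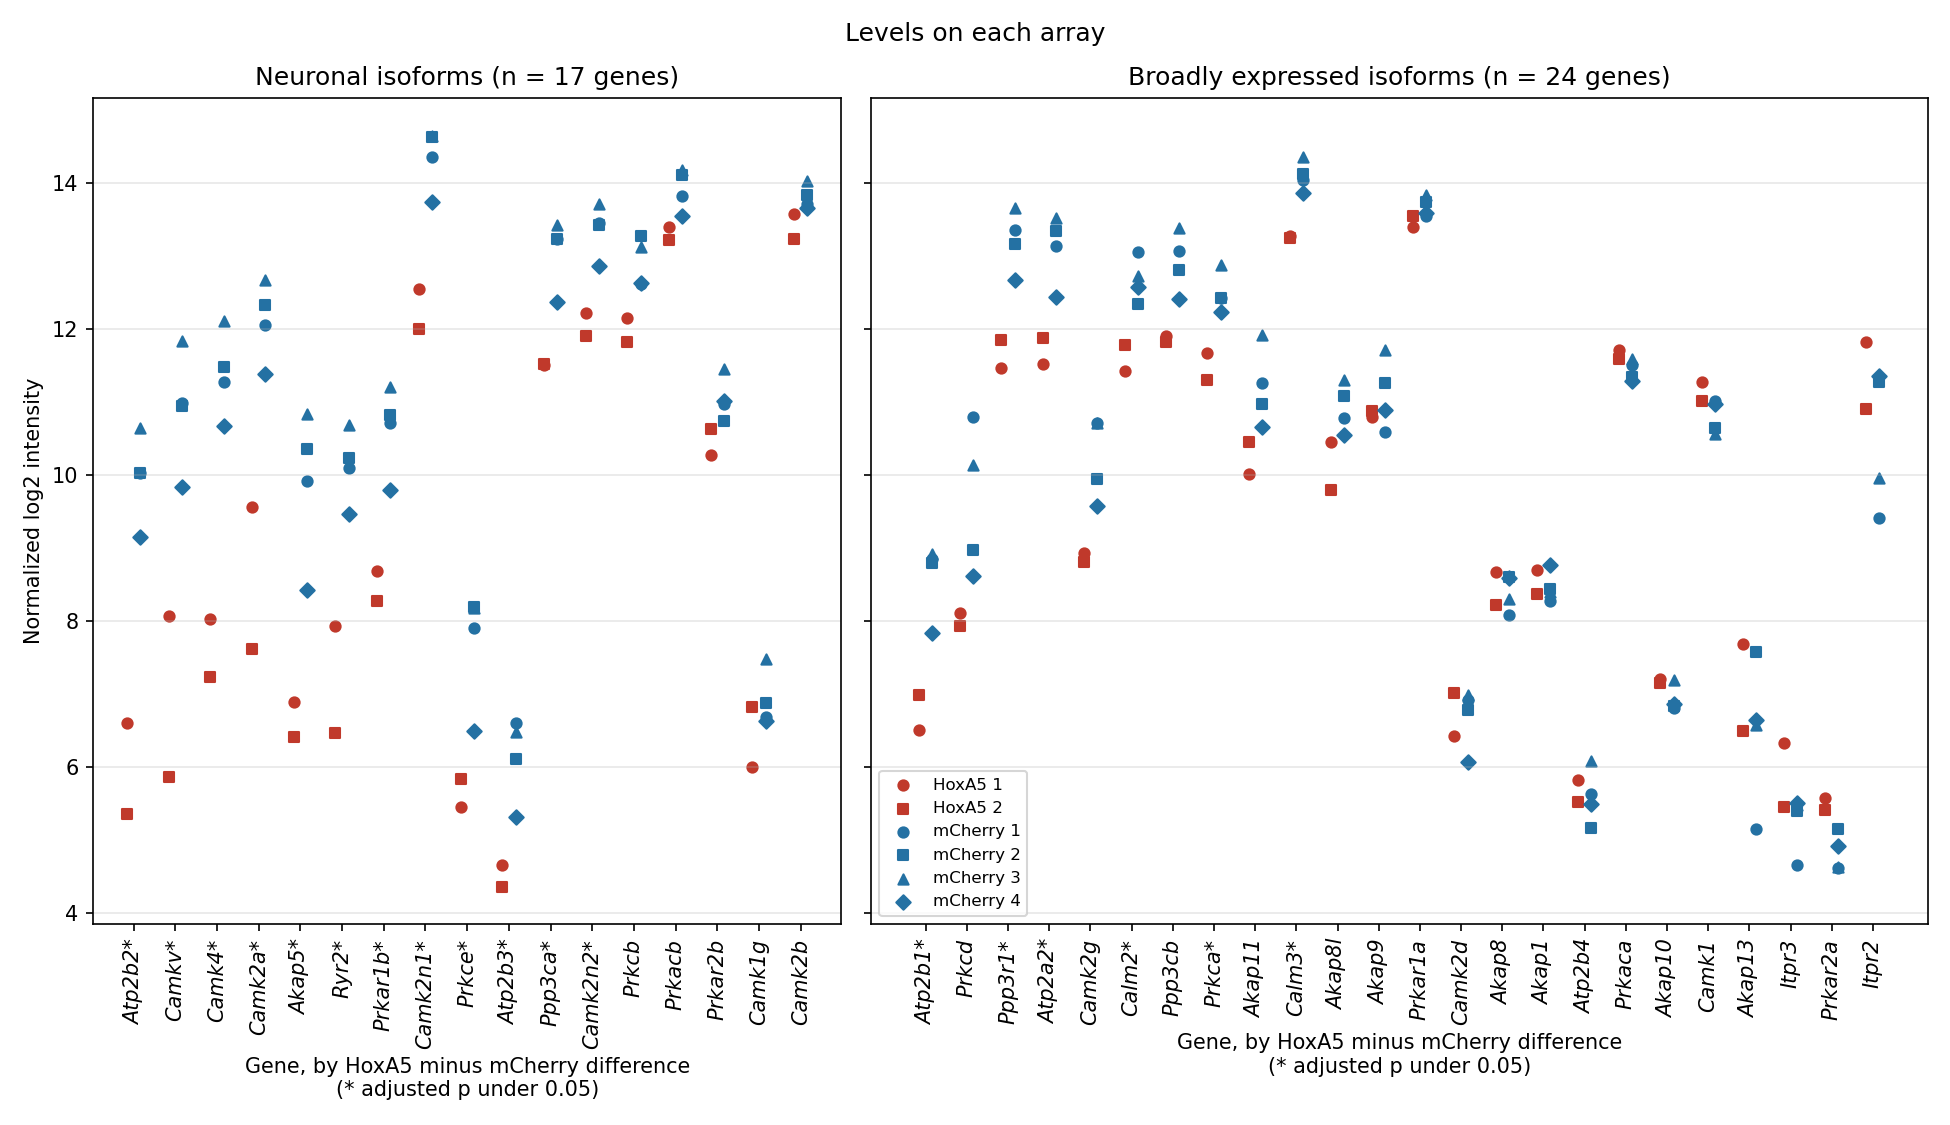
Normalized log2 intensity (vertical axis) of each isoform (horizontal axis, ordered by difference) on each of the 6 arrays, for 17 neuronal isoforms at left and 24 broadly expressed isoforms at right. HoxA5 arrays are red, mCherry arrays blue, 1 point is 1 array, and an asterisk marks an adjusted p under 0.05. The red points lie below all blue points for 16 of the 17 neuronal isoforms and for 11 of the 24 broadly expressed ones.

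The members were split by known expression. The first list held isoforms enriched in brain or found mainly in neurons (20 listed, 17 tested), called neuronal here. Some of these are also known from other tissues, such as Ryr2 from heart. The second list held isoforms found in most tissues (26 listed, 24 tested). Among the neuronal isoforms 12 were called lower, and the other 5 (Prkcb, Prkacb, Prkar2b, Camk1g and Camk2b) also had differences below 0. Their median difference was -2.05. Among the broadly expressed isoforms 6 were called lower (Atp2b1, Ppp3r1, Atp2a2, Calm2, Prkca and Calm3), 13 had differences below 0, and the median was -0.24. Of 28 tested genes in neither list 1 was called, Prkcz, and the median was -0.16. The mean level of the neuronal isoforms was 9.27 and 8.74 on the HoxA5 arrays, against 11.09, 11.22, 11.57 and 10.41 on the mCherry arrays. For the broadly expressed isoforms it was 9.61 and 9.48 on the HoxA5 arrays, against 9.91, 10.01, 10.20 and 9.77 on the mCherry arrays. In both lists the HoxA5 arrays lay below all 4 mCherry arrays, and the gap was wider in the neuronal list. No test was made of the difference between the lists, since they were drawn up with results of these arrays known.

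PKA and CaM kinase 4 both phosphorylate CREB, a factor that binds the cyclic AMP response element. The core of that element, TGACG (on either strand), was therefore looked for in the 250 bases before the start sites of the signalling genes, in RefSeq promoters of build GRCm38.p6. It was found in 17 of 90 promoters of the 62 genes matched (18.9%), against 17.8% of 32851 promoters of all genes. Of the 19 genes called lower 11 were matched, with 20 promoters, since a gene can have several, and 6 of these promoters, from 5 genes, held it (30.0%). It was in 11 of 63 promoters of 44 genes tested and not called (17.5%). The full palindrome TGACGTCA was in 1 of the 90 (1.11%, at Prkar1a), against 1.55% of all promoters. The letters ATTA, the core of many homeodomain sites, were in 35 of 90 promoters (38.9%), against 54.9% of all. They were in 2 of 20 promoters of the 11 genes called lower (10.0%, at Camkv and Prkar1b), against 28 of 63 promoters of the 44 not called (44.4%). Several promoters can belong to 1 gene, so these shares do not count genes. A match is a description of letters and not a binding site, and motifs were chosen after the values were seen. The stretches below come from 3 genes called lower (Calm3, Camk2n2 and Ppp3r1) and from the pair of PKA catalytic genes, whose differences had opposite signs. Capitals mark the match on the strand of the gene, read 5′ to 3′. They lie at chr7:16924057-16924121 (minus strand) for Calm3, chr16:20621406-20621470 (minus) for Camk2n2, chr11:17159084-17159148 (plus) for Ppp3r1, chr3:146813014-146813078 (minus) for Prkacb and chr8:83972828-83972892 (plus) for Prkaca.
Calm3: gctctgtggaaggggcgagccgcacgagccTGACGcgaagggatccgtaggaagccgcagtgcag
Camk2n2: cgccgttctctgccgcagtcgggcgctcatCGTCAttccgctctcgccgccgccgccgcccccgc
Ppp3r1: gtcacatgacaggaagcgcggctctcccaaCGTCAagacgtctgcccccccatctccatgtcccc
Prkacb: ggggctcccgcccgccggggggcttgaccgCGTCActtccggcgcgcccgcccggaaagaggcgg
Prkaca: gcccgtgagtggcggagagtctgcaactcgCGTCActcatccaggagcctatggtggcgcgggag

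Calmodulin is encoded by several genes for the same protein. Calm3 read 13.27 and 13.24 on the HoxA5 arrays, against 14.04, 14.13, 14.36 and 13.87 on the mCherry arrays, and fell by 0.84 (SE 0.20, adjusted p = 0.0404). For Calm2 the levels were 11.42 and 11.79 in HoxA5 tumours and 13.06, 12.34, 12.73 and 12.57 in mCherry tumours, with a difference of -1.07 (SE 0.25, adjusted p = 0.0383). The HoxA5 arrays lay below all mCherry arrays for both. The other detected probes for Calm2 differed by -0.64 and 0.04, so its probes disagree. Neither call held without HoxA5 1 (adjusted p 0.227 for Calm3 and 0.275 for Calm2), HoxA5 2 (0.235 and 0.175), mCherry 1 (0.105 and 0.0992), mCherry 2 (0.102 and 0.0562) or mCherry 3 (0.0523 and 0.0568).

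In CaM kinase II the alpha isoform was called lower and the other 3 were not called. Camk2a, the kinase of excitatory synapses in forebrain, had levels of 9.57 and 7.62 in HoxA5 tumours and 12.05, 12.33, 12.67 and 11.39 in mCherry tumours. It fell by 3.51 (SE 0.51), 11.4-fold (adjusted p = 0.00921), and its second probe differed by -3.73. Its difference was -4.51 without HoxA5 1 and -2.53 without HoxA5 2. Camk2b, the other brain isoform, had 13.59 and 13.24 on the HoxA5 arrays, against 13.72, 13.84, 14.03 and 13.65 on the mCherry arrays. Its difference of -0.40 (95% interval -0.85 to 0.05, adjusted p = 0.253) did not pass, although the HoxA5 arrays were again the lowest. The gamma isoform, Camk2g, stood at 8.94 and 8.82 in HoxA5 tumours, against 10.72, 9.95, 10.72 and 9.58 in mCherry tumours (-1.36, adjusted p = 0.0576), and its 4 detected probes ran from -1.36 to 0.17. For Camk2d, the delta isoform, the values were 6.43 and 7.02 with HoxA5 and 6.92, 6.78, 6.99 and 6.07 with mCherry, the groups overlapped, and the difference was 0.03 (interval -0.84 to 0.90). Its sign turned to -0.14 with the mean of its probes and to -0.13 with a replicate block.

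The 2 inhibitor proteins of CaM kinase II were also called lower. Camk2n1 had 12.56 and 12.00 on the HoxA5 arrays, against 14.36, 14.64, 14.65 and 13.75 on the mCherry arrays, a drop of 4.20-fold (log2 -2.07, SE 0.29, adjusted p = 0.00897) that its second probe repeated at -2.14. Camk2n2 had 12.22 and 11.90 with HoxA5, against 13.45, 13.43, 13.71 and 12.86 with mCherry, and fell 2.47-fold (SE of the log2 difference 0.26, adjusted p = 0.0223). Every HoxA5 value lay below every mCherry value for both genes.

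Among the remaining CaM kinases, Camk4 and Camkv were called lower. Camk4, a nuclear kinase of neurons and T cells, read 8.03 and 7.24 in HoxA5 tumours, against 11.28, 11.49, 12.12 and 10.67 in mCherry tumours, a log2 difference of -3.75 (SE 0.40, 13.5-fold, adjusted p = 0.00500). Camkv, a relative without kinase activity that is found on neuronal vesicles, read 8.08 and 5.86 on the HoxA5 arrays, against 10.99, 10.94, 11.84 and 9.84 on the mCherry arrays (-3.93, SE 0.64, 15.3-fold, adjusted p = 0.0115). The groups were apart for both genes, and HoxA5 2 was the lower of the HoxA5 arrays. Camkv differed by -5.05 without HoxA5 1 and by -2.81 without HoxA5 2, and without background correction the differences were -3.12 for Camk4 and -2.95 for Camkv. Camk1, the broadly expressed CaM kinase I, had a difference of 0.34 (adjusted p = 0.408). The differences of Camk1d (-1.66), Camk1g (-0.51) and Camkk2, the kinase that activates CaM kinases I and IV (-0.86), did not pass either. Without HoxA5 2 the adjusted p was 0.0996 for Camk2a, 0.0970 for Camk4, 0.141 for Camkv, 0.127 for Camk2n1 and 0.223 for Camk2n2. Camk2n2 was also not called without HoxA5 1 (0.104), mCherry 1 (0.0742) or mCherry 2 (0.0663).

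Calcineurin, the calmodulin-dependent phosphatase that acts on NFAT and on synaptic proteins, had 2 of 4 tested subunits called lower. Ppp3ca, the alpha catalytic subunit, had 11.51 and 11.52 on the HoxA5 arrays, against 13.24, 13.24, 13.42 and 12.37 on the mCherry arrays, and fell by 1.55 (SE 0.29, 2.94-fold, adjusted p = 0.0197). Ppp3r1, the regulatory subunit, had 11.47 and 11.86 with HoxA5 and 13.36, 13.17, 13.66 and 12.67 with mCherry, and fell by 1.55 (SE 0.28, adjusted p = 0.0169). Both HoxA5 values lay below the lowest control for each gene. Ppp3cb, the beta catalytic subunit, had 11.91 and 11.83 in HoxA5 tumours, against 13.07, 12.82, 13.39 and 12.41 in mCherry tumours, and its difference of -1.05 (interval -1.66 to -0.44) missed the threshold (adjusted p = 0.0533). Ppp3cc, the gamma subunit best known from testis, differed by 0.30 (adjusted p = 0.565). The calls for Ppp3ca and Ppp3r1 were lost without HoxA5 1 (adjusted p 0.133 and 0.156), HoxA5 2 (0.173 and 0.128), mCherry 1 (0.0681 and 0.0627) or mCherry 2 (0.0605 and 0.0503).

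In PKA 1 of 6 subunits was called. Prkar1b, a regulatory subunit found mainly in neurons, had 8.69 and 8.27 on the HoxA5 arrays, against 10.71, 10.82, 11.21 and 9.80 on the mCherry arrays, and fell by 2.16 (SE 0.38, 4.45-fold, adjusted p = 0.0148). Its broadly expressed counterpart Prkar1a had 13.41 and 13.56 with HoxA5 and 13.55, 13.75, 13.84 and 13.59 with mCherry, a difference of -0.20 (interval -0.62 to 0.22) whose groups overlapped and whose sign turned to 0.017 under median scaling. Leaving out an array ended the Prkar1b call for HoxA5 1 (adjusted p 0.0785), HoxA5 2 (0.175), mCherry 1 (0.0563) and mCherry 2 (0.05001).

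The type II regulatory subunits had differences of opposite sign, and neither was called. Prkar2b, the form common in brain, read 10.28 and 10.64 in HoxA5 tumours and 10.97, 10.75, 11.45 and 11.02 in mCherry tumours (-0.59, adjusted p = 0.201). Prkar2a read 5.57 and 5.42 in HoxA5 tumours, against 4.62, 5.16, 4.64 and 4.92 in mCherry tumours (0.66, adjusted p = 0.170), with its probe detected on 2 of 2 HoxA5 arrays and 1 of 4 mCherry arrays. The groups were apart in each case.

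Of the catalytic subunits, Prkacb, the beta form enriched in brain, stood at 13.40 and 13.22 on the HoxA5 arrays, against 13.83, 14.11, 14.19 and 13.56 on the mCherry arrays (-0.61, interval -1.11 to -0.11, adjusted p = 0.134). Prkaca, the alpha form made in most cells, stood at 11.71 and 11.59 with HoxA5 and 11.51, 11.35, 11.60 and 11.30 with mCherry (0.21, interval -0.25 to 0.68, adjusted p = 0.558). The HoxA5 arrays were below all controls for Prkacb and overlapped them for Prkaca, and neither gene was called.

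Of the 14 anchoring proteins tested 1 was called. Akap5, the scaffold that holds PKA, PKC and calcineurin at the postsynaptic membrane, had 6.90 and 6.41 on the HoxA5 arrays, against 9.92, 10.36, 10.83 and 8.43 on the mCherry arrays, and fell by 3.23 (SE 0.58, 9.40-fold, adjusted p = 0.0161). The control mCherry 4 was the nearest to the HoxA5 arrays, and without background correction the difference was -2.29. Differences of the other 13 ran from -1.22 for Akap6 (known from muscle and neuronal nuclear membrane) to 0.60 for Akap13, and none was called (3 had an unadjusted limma p under 0.05). Akap11, Akap8l, Akap2 and Akap17b lay between -0.97 and -0.64, and Akap9 (a scaffold of the centrosome and Golgi), Akap8, Akap1 (mitochondrial), Akap7, Akap4 and Akap10 between -0.28 and 0.26. Akap12, a scaffold of PKA and PKC, had 0.52 (adjusted p = 0.569), with its second probe at 1.50, 0.09 without mCherry 3 and 0.96 without HoxA5 1. Without HoxA5 1, HoxA5 2, mCherry 1 and mCherry 2 in turn, the adjusted p for Akap5 was 0.0898, 0.175, 0.0589 and 0.0513.

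All 7 PKC genes tested had differences below 0, and 3 were called. Prkce, a PKC that needs diacylglycerol and no calcium, had 5.46 and 5.83 on the HoxA5 arrays, against 7.91, 8.19, 8.18 and 6.49 on the mCherry arrays, and fell by 2.05 (SE 0.51, adjusted p = 0.0478). Its second probe differed by -0.27, and the call was lost with the mean of its probes (-1.16, adjusted p 0.105) and without background correction (-0.97, 0.0762). Prkcz, an atypical form that in brain also gives a kinase made of the catalytic part alone, had 10.91 and 10.17 in HoxA5 tumours, against 11.93, 11.68, 12.39 and 11.56 in mCherry tumours, and fell by 1.35 (SE 0.30, adjusted p = 0.0353), with all 4 detected probes between -1.38 and -1.15. Prkca, the calcium-dependent form made in most tissues, had 11.68 and 11.31 with HoxA5 and 12.42, 12.43, 12.88 and 12.23 with mCherry and fell by 0.99 (SE 0.24, adjusted p = 0.0444), while its second probe differed by 0.23 and the mean of its probes by -0.38 (adjusted p 0.362). The groups were apart for all 3.

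The brain-enriched calcium-dependent form Prkcb, with 12.16 and 11.83 on the HoxA5 arrays, against 12.62, 13.28, 13.13 and 12.63 on the mCherry arrays, differed by -0.92 (interval -1.49 to -0.35) and was not called (adjusted p = 0.0637). Prkcd, with 8.11 and 7.93 in HoxA5 tumours and 10.80, 8.98, 10.15 and 8.61 in mCherry tumours, differed by -1.61 (adjusted p = 0.117). Its mCherry values were the most spread of the PKC genes (SD 1.02). Prkch and Prkcq, known from epithelium and T cells, differed by -0.63 and -0.12. The calls held in 3 of 14 alternatives for Prkce, 7 for Prkcz and 2 for Prkca. Without HoxA5 2 the adjusted p was 0.227 for Prkce, 0.272 for Prkcz and 0.291 for Prkca, and without HoxA5 1 0.278, 0.0780 and 0.148. Without mCherry 1 the 3 values were 0.124, 0.0992 and 0.107, and without mCherry 2 0.108, 0.0715 and 0.0955. Leaving out mCherry 3 also ended the calls for Prkce (0.0738) and Prkca (0.0654).

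Of the calcium release channels, 1 of 3 ryanodine receptors was called lower and neither IP3 receptor was called. Ryr2, the ryanodine receptor of heart and of many neurons, had 7.93 and 6.46 on the HoxA5 arrays, against 10.11, 10.23, 10.69 and 9.47 on the mCherry arrays, and fell by 2.93 (SE 0.46, 7.61-fold, adjusted p = 0.0107). Ryr3, found in parts of the brain and in smooth muscle, had 5.30 and 4.63 in HoxA5 tumours and 7.25, 8.41, 8.49 and 6.01 in mCherry tumours. Its difference of -2.57 (interval -4.05 to -1.10) missed the threshold (adjusted p = 0.0529), its second probe differed by -2.36, and the probe was detected on 1 of 2 HoxA5 arrays and 4 of 4 mCherry arrays. Ryr1, the channel of skeletal muscle, had 5.28 and 4.54 with HoxA5 and 5.72, 6.09, 6.98 and 5.04 with mCherry (-1.05, adjusted p = 0.225). Its groups overlapped, and its probe was detected on 1 of 2 HoxA5 arrays and 3 of 4 mCherry arrays. The muscle gene Acta1 was called lower (limma adjusted p = 0.0126), at 5.85 and 5.02 in HoxA5 tumours, against 8.76, 8.17, 9.22 and 7.52 in mCherry tumours. It was the 1 muscle marker detected of 4, and a part of muscle tissue in these values was not tested. Of the 6 arrays, HoxA5 2 was the only one whose omission ended the Ryr2 call (-2.18, adjusted p 0.128), and Ryr2 differed by -3.67 without HoxA5 1. Without background correction the differences were -2.16 for Ryr2 and -1.12 for Ryr3.

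The IP3 receptors measured had differences above 0. Itpr2 had 11.82 and 10.91 on the HoxA5 arrays, against 9.41, 11.28, 9.97 and 11.36 on the mCherry arrays (0.86, interval -0.36 to 2.09, adjusted p = 0.360). Itpr3 had 6.33 and 5.46 with HoxA5 and 4.66, 5.40, 5.49 and 5.51 with mCherry (0.63, adjusted p = 0.322), detected on 2 of 2 HoxA5 arrays and 3 of 4 mCherry arrays. The groups overlapped for both genes. Without HoxA5 1 and HoxA5 2 in turn, Itpr2 differed by 0.41 and 1.32 and Itpr3 by 0.19 and 1.05. The neuronal receptor Itpr1 was not analysed here. Of the genes named for interaction with these receptors, Itprip stood at 7.54 and 7.06 with HoxA5 and 5.61, 7.22, 5.17 and 7.10 with mCherry (1.02, adjusted p = 0.321), and its groups overlapped as well. It differed by 0.43 without background correction and by 0.66 without mCherry 3. Itpripl2, with 8.18 and 7.45 on the HoxA5 arrays, against 6.73, 7.15, 6.56 and 7.47 on the mCherry arrays, differed by 0.83 (adjusted p = 0.226). The other 3 of these genes (Itpripl1, Itprid2 and Itprid1) ran from -0.13 to 0.75 and were not called.

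The plasma membrane pumps, which push calcium out of the cell, had 3 of 4 genes called lower. Atp2b2, the fast neuronal pump PMCA2, had 6.60 and 5.36 on the HoxA5 arrays, against 10.03, 10.03, 10.64 and 9.16 on the mCherry arrays, and fell by 3.98 (SE 0.47, 15.8-fold, adjusted p = 0.00571). Its 2 dimmer probes differed by -1.54 and -0.32, the mean of its probes gave -1.95, and leaving out background correction gave -2.58. Without HoxA5 1 it differed by -4.61 and without HoxA5 2 by -3.33. Atp2b3, the other neuronal pump, had 4.66 and 4.36 in HoxA5 tumours, not above background on either array, and 6.61, 6.11, 6.48 and 5.32 in mCherry tumours, above background on all 4. On the background-corrected scale it was at least 1.97-fold lower in HoxA5 tumours, with each HoxA5 array put at its lowest signal above background (adjusted p = 0.0440). Without background correction its difference was smaller than that bound and not called (-0.56, adjusted p 0.0508). Atp2b1, the pump made in most cells and abundant in brain, had 6.51 and 6.99 with HoxA5 and 8.86, 8.79, 8.93 and 7.84 with mCherry and fell by 1.85 (SE 0.40, adjusted p = 0.0300), or by 1.16 without background correction. The groups were apart for these 3. Atp2b4, known from red cells and smooth muscle, had 5.82 and 5.52 on the HoxA5 arrays, against 5.63, 5.17, 6.09 and 5.49 on the mCherry arrays, overlapped, and differed by 0.08 (interval -0.66 to 0.82), with the sign turning to -0.073 without HoxA5 1 and to -0.064 without mCherry 2. Without HoxA5 2 the adjusted p was 0.0970 for Atp2b2, 0.172 for Atp2b1 and 0.270 for Atp2b3. The calls for Atp2b1 and Atp2b3 were also lost without HoxA5 1 (0.228 and 0.203), mCherry 1 (0.0948 and 0.110), mCherry 2 (0.0813 and 0.0955) and mCherry 3 (0.0517 and 0.0695).

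The SERCA pumps, which refill the endoplasmic reticulum, had 1 of 3 genes called lower. Atp2a2, the SERCA of heart, brain and most other tissues, had 11.52 and 11.88 on the HoxA5 arrays, against 13.14, 13.35, 13.52 and 12.44 on the mCherry arrays, and fell by 1.41 (SE 0.30, adjusted p = 0.0292). Its 2 other probes differed by -1.35 and -0.28. Atp2a3 (-1.50, adjusted p = 0.100) did not pass. Nor did the fast muscle form Atp2a1 (interval -2.07 to -0.065, adjusted p = 0.180), which was not above background on either HoxA5 array. Its fold between group means has only a bound (at least 1.77-fold lower), which leaves out the spread between arrays. The Atp2a2 call was lost without HoxA5 1 (adjusted p 0.228), HoxA5 2 (0.172), mCherry 1 (0.0883) or mCherry 2 (0.0815).

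The rule also took in genes of other pathways. Of 6 AMP-activated kinase subunits, which sense energy, none was called by limma, 1 had an unadjusted p under 0.05 (Prkaa2, -1.21, adjusted p = 0.117), and the other 5 ran from -0.76 for Prkab2 to 0.25 for Prkab1. Prkaa2 is the catalytic subunit best known from muscle, and the alternative catalytic subunit of most tissues, Prkaa1, differed by 0.0092. Prkcsh, the glucosidase subunit, had 12.56 and 12.41 in HoxA5 tumours, against 11.57, 11.93, 11.46 and 11.78 in mCherry tumours, with the groups apart. Its difference of 0.80 (SE 0.22) did not pass (adjusted p = 0.0601), and its second probe differed by 0.16. Without mCherry 4 it was called (adjusted p 0.0298), as were the 11 further genes named above.

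**Figure D2:**
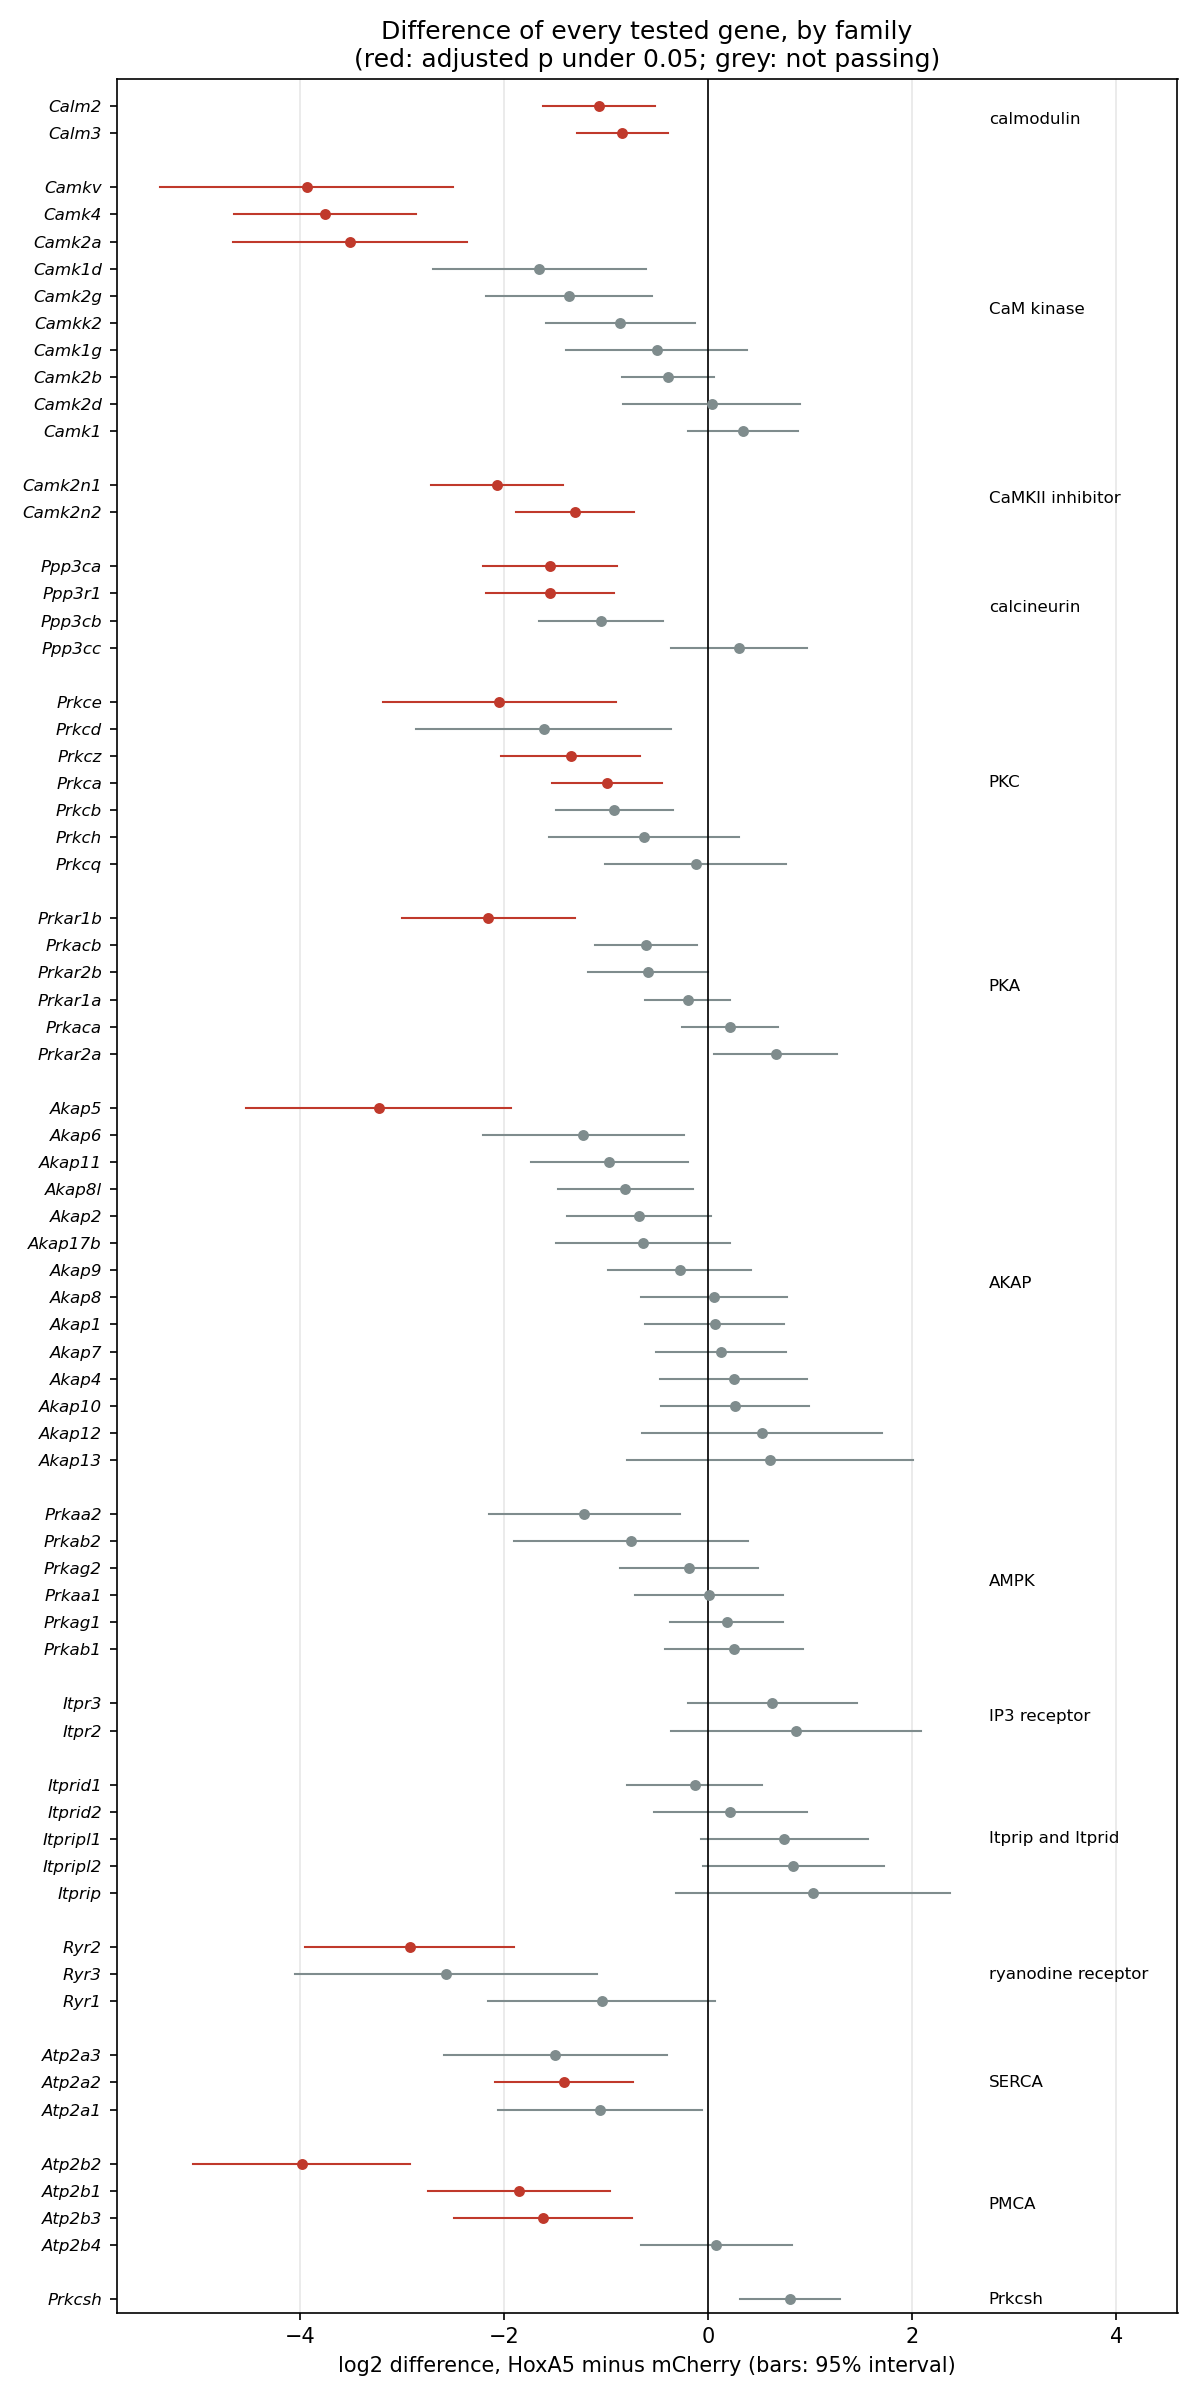
log2 difference, HoxA5 minus mCherry (horizontal axis), of each of the 69 tested genes (rows, grouped by family), with 95% intervals from limma as bars. The 19 genes with an adjusted p under 0.05 are red and lie left of 0, and every gene right of 0 is grey.

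A ratio of isoforms within each array removes what raises or lowers both by the same factor. For 12 pairs, a neuronal isoform over its broadly expressed partner, 10 could be measured. The pairs were chosen with earlier results of these data known. The permutation p-values below therefore only describe how the arrays were ordered, and no conclusion is drawn from them. The ratio lay below that of every mCherry array on both HoxA5 arrays for 8 pairs, above for 1, and overlapped for 1. An exact permutation test, two-sided and enumerating all 15 ways to divide the arrays, gave p = 0.0667 for each of the 8, the smallest it can give, and 0.0833 after adjustment over the 10 pairs, so no pair could reach 0.05. In 2 of the 8 pairs a probe was not above background on most arrays of a group (Atp2b3 on 2 of 2 HoxA5 arrays, Prkar2a on 3 of 4 mCherry arrays), so that only the order of their ratios is given. The largest of the other 6 shifts was that of Camk4 over Camk1, whose log2 ratio relative to the mCherry mean was -3.84 and -4.36 on the HoxA5 arrays, against -0.33, 0.25, 0.97 and -0.89 on the mCherry arrays. Camk2a over Camk2d stood at -2.28 and -4.81 with HoxA5, against -0.29, 0.13, 0.27 and -0.11 with mCherry. The HoxA5 values lay well outside the control range in both pairs.

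Among the pumps, Atp2b2 over Atp2b1 shifted by -2.13. In PKA the shifts were -1.96 for Prkar1b over Prkar1a and -0.83 for Prkacb over Prkaca. The smallest of the 6 was Ppp3ca over Ppp3cb at -0.50, with -0.54 and -0.46 on the HoxA5 arrays, against 0.02, 0.28, -0.11 and -0.18 on the mCherry arrays. The exceptions were Camk2b over Camk2g, higher by 0.97 (exact permutation p = 0.133, adjusted 0.148), and Prkcb over Prkcd, at 0.69 (exact permutation p = 0.600, the same after adjustment). The shift is the neuronal isoform's difference minus that of its partner. A shift above 0 therefore only restates that the broadly expressed partner had the more negative difference.

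**Figure D3:**
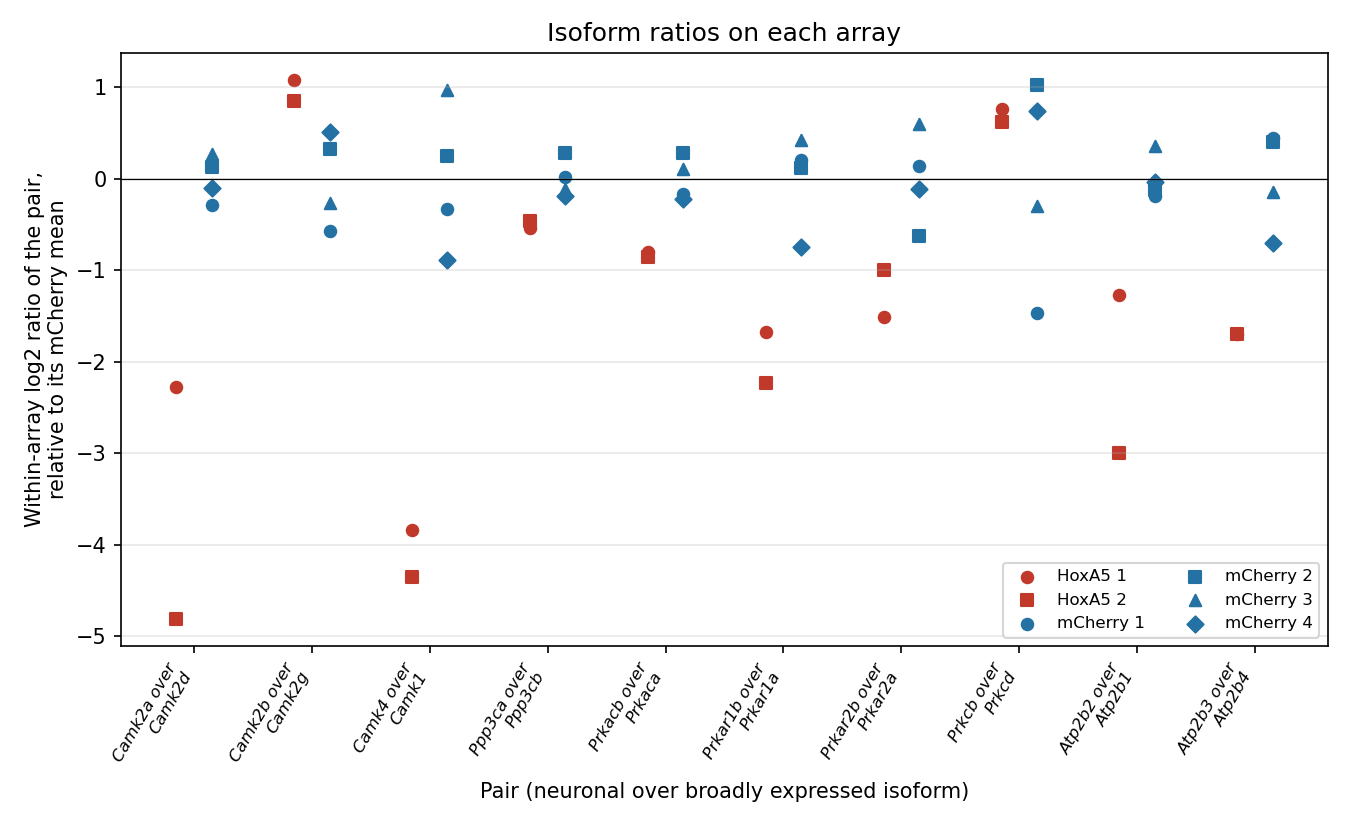
Within-array log2 ratio of a neuronal over a broadly expressed isoform, relative to the mean of the 4 mCherry arrays (vertical axis), for 10 pairs (horizontal axis), with HoxA5 arrays in red and mCherry arrays in blue, 1 point per array. The red points lie below all blue points for 8 pairs (for Atp2b3 over Atp2b4 and Prkar2b over Prkar2a with 1 probe mostly not above background in a group), above them for Camk2b over Camk2g, and among them for Prkcb over Prkcd.

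Other genes of these pathways were taken from a list of 50 regulators, targets and channels, of which 41 were tested. In HoxA5 tumours 6 (14.6%) were called lower and 0 higher, against 4.64% and 1.21% of all genes tested. Unadjusted, 13 had a limma p under 0.05, with 9 of them lower and 4 higher (24.6% of all genes tested had such a p). The median difference was 0.0048. The largest difference was that of Ppp1r1b, the striatal phosphatase inhibitor DARPP-32 that PKA activates, at 9.01 and 8.10 on the HoxA5 arrays, against 12.13, 12.43, 13.06 and 10.34 on the mCherry arrays (-3.43, adjusted p = 0.0176). Nrgn, which holds calmodulin in dendritic spines and is a PKC substrate, had 8.97 and 8.25 with HoxA5 and 11.73, 11.97, 11.56 and 10.73 with mCherry (-2.89, adjusted p = 0.00621). The sodium-calcium exchanger of neurons, Slc8a2, was not above background on either HoxA5 array and on the background-corrected scale was at least 3.40-fold lower there (adjusted p = 0.0265). Its difference was smaller than that bound and not called without background correction (-0.80, adjusted p 0.0593), and the call was also lost with the mean of its probes (adjusted p 0.0846). For Ppp1r1b that mean was -2.07 (adjusted p 0.0562). Ppp1r1a, a PKA-activated phosphatase inhibitor, fell by 1.98 (adjusted p = 0.00951). Dgkz, which removes diacylglycerol, fell by 1.25 (adjusted p = 0.0223). Add2, a membrane skeleton protein and PKC substrate, fell by 1.39 (adjusted p = 0.0424), but its probes disagreed, with a mean of 0.11. Each of the 6 calls was lost without HoxA5 2 (adjusted p 0.0996 to 0.235). Nrgn and Ppp1r1a held without any other array, and the rest were lost without HoxA5 1 (0.0756 for Ppp1r1b, 0.166 for Slc8a2, 0.129 for Dgkz, 0.228 for Add2), mCherry 1 (0.0627, 0.0710, 0.0563 and 0.115) or mCherry 2 (0.0546, 0.0630, 0.0670 and 0.0900), with Add2 lost without mCherry 3 too (0.0627). The largest difference upward was that of Orai1, the store-operated calcium channel, at 1.27 (adjusted p = 0.126).

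The levels of the signalling genes and of the cell type markers can be set beside each other array by array. The mean of the 19 genes called was 9.42 and 8.95 on the HoxA5 arrays, against 11.45, 11.46, 11.84 and 10.67 on the mCherry arrays. The mean of the neuron markers was 9.48 and 8.54 with HoxA5, against 12.27, 12.47, 12.76 and 10.92 with mCherry. In both lists HoxA5 2 was the lowest array, mCherry 4 the lowest control and mCherry 3 the highest. The 19 genes were picked for being lower in HoxA5 tumours, and the order was not particular to neuronal genes. The broadly expressed isoforms had it too (9.48 on HoxA5 2, 9.77 on mCherry 4 and 10.20 on mCherry 3). The myelin and astrocyte markers also had mCherry 4 as the lowest control (10.40 and 11.21). The markers of dividing cells had 10.26 and 10.42 on the HoxA5 arrays, against 7.39, 7.85, 6.10 and 9.26 on the mCherry arrays, so mCherry 4 was the highest control and mCherry 3 the lowest. The part of these other cell types in the differences of the signalling genes was not tested.

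**Figure D4:**
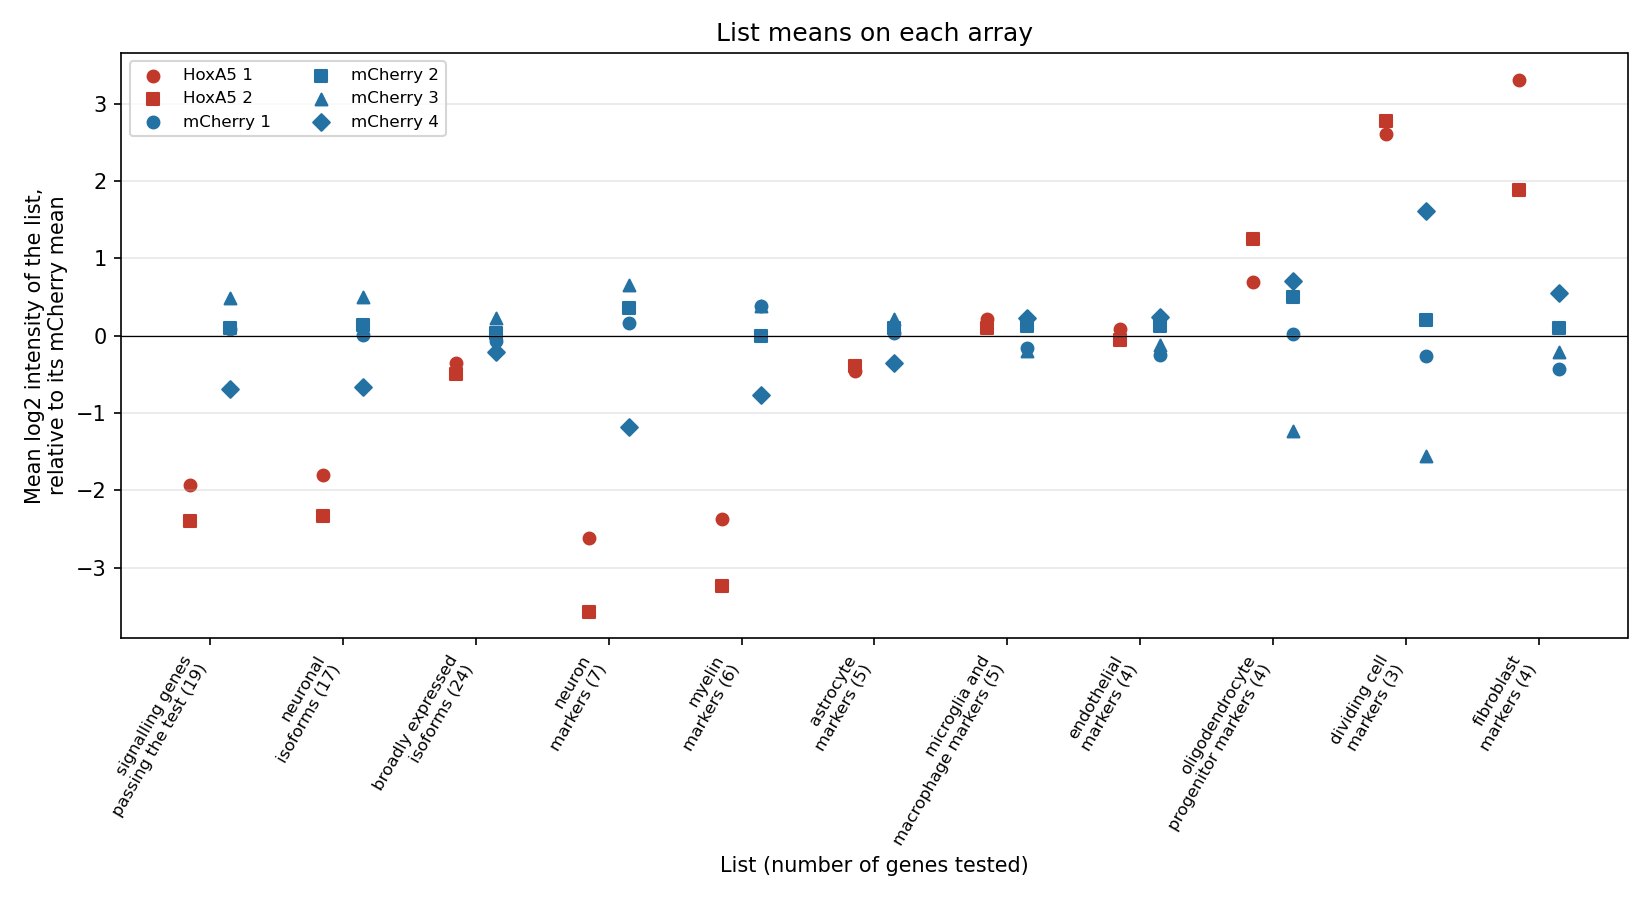
Mean log2 intensity of each gene list relative to the mean of its 4 mCherry arrays (vertical axis), by list (horizontal axis, with the number of genes tested), 1 point per array, HoxA5 in red and mCherry in blue. The neuron and myelin markers lie lower than the signalling genes on the HoxA5 arrays, and the astrocyte, microglial and endothelial markers lie within 0.5 of the mCherry mean. The lowest blue point is mCherry 4 in the lists of signalling genes and for the neuron, myelin and astrocyte markers.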

How the data were processed

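Biotin-labelled RNA of 2 HoxA5 and 4 mCherry tumours was hybridised to Illumina bead arrays. The authors deposited intensities per probe, not normalized between arrays, with a detection p-value beside each, per the file headers. A second deposited table holds the authors' processed log2 values. Per the submitters' processing notes limma was used, and how background was treated in it is not stated there. Intensities were background-corrected and quantile-normalized here with neqc (offset 16) in limma 3.58.1 under R 4.3.3. The offset understates folds of dim genes, and quantile normalization forces the arrays to share a distribution.

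Of 45281 probes 34885 had 1 symbol in GEO's platform annotation, 18 had several and 10378 had none, and only the first kind was used. Symbols were set against the GRCm38.p6 gene table, which held 75 of the 76 members and changed 0. Probes with a detection p under 0.05 on at least 2 arrays were kept (19479), each gene by its brightest (12242 genes). Groups came from the sample titles and were fitted by lmFit, then eBayes allowing a trend with intensity, and no covariate (residual degrees of freedom 4). The labels give no slide or scan batch. The number of arrays limits the precision. Isoform pairs were tested by exact permutation.

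The members, gene lists, pairs and markers were chosen with earlier results of these data known. Full values are given for the main isoforms of each family whatever their values, for every other member called, and for the 3 largest differences each way. Some listed genes are not reported here, and 1 probe annotated to Ryr3 and a second gene was not used. Of members with several detected probes (35), 27 had all probes in 1 direction. The fits were tested on simulated data. Promoters came from RefSeq, of which 62 members were matched. Alternatives changed the background correction, scaling, values, filter, probe choice, variance trend, replicate block and arrays used.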

Additional observations from a re-analysis of the deposited data

Results flagged for a closer look

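In 59 sets of 4 mCherry values tested, 3 had 1 control array far from the other 3, measured as its gap to the nearest value over the whole range and set against Dixon's 95% limit, which chance passes in about 1 set of 20. For Itpr3 the ratio was 0.874, with mCherry 1 at 4.66 and the others at 5.40 to 5.51. For Atp2b1 it was 0.879, with mCherry 4 at 7.84 and the others at 8.79 to 8.93. For Prkce it was 0.837, with mCherry 4 at 6.49 and the others at 7.91 to 8.19. Both genes with a low mCherry 4 are among those called lower in HoxA5 tumours. A count of 3 in 59 is close to that share of 1 in 20.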

How the results depend on the processing

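The 19 genes called kept their sign in all 14 alternatives, a result nearly fixed by the HoxA5 arrays lying below every mCherry array for each. The number called lower moved between 10 and 18 in the alternatives that kept every array. It was 10 with median scaling (5.73% of all genes called) and 11 without an intensity trend (4.39%). Over these alternatives, the share of all genes called ran from 2.88% without a detection filter to 7.39% with a replicate block. Median scaling moved the median of all genes tested from 0.07 to 0.20 and the share of calls that were higher from 20.7% to 37.7%, and put the broadly expressed isoforms at -0.047. Without background correction the median was -0.46 over the tested members and -1.52 over the neuronal isoforms, against -0.48 and -1.51 with the authors' deposited values. The mean of a gene's probes gave -1.33 for the neuronal isoforms. The labels number replicates in both groups and state no pairing beyond the number. Deviations of same-numbered arrays correlated at -0.36 and -0.24 across genes. With 2 HoxA5 arrays, the deviations of HoxA5 1 and HoxA5 2 from their mean mirror each other, so these values cannot show whether samples were paired. With a replicate block 18 members were called, 16 of them among the 19, and the median was -0.82. Leaving out 1 mCherry array gave 6 to 30 calls lower and 0 to 1 higher, while 1.42% to 19.9% of all genes tested were called. Without 1 HoxA5 array, which left 1 in that group, calls were few or absent. Across all omissions of 1 array, medians were -0.87 to -0.67 over members and -2.27 to -1.78 over neuronal isoforms. Over broadly expressed ones they were -0.35 to -0.12 (lowest without mCherry 1, highest without mCherry 3). Isoform pairs apart numbered 7 to 9 in every setting that gave them. Signs turned for Prkar1a (0.017, median scaling), Camk2d (-0.14 with the mean of probes, -0.13 with the block, -0.26 without HoxA5 2, -0.17 without mCherry 4, up to 0.33 without HoxA5 1), Add2 (0.11, mean of probes) and Atp2b4 (-0.073 without HoxA5 1, -0.064 without mCherry 2, up to 0.24 without mCherry 3), all but Add2 being uncalled. With no background correction dim genes differed less (Atp2b1 -1.16, Ryr3 -1.12, Prkce -0.97, Slc8a2 -0.80, Atp2b3 -0.56). The cause was not tested for any of these. With 2 HoxA5 arrays, precision is limited, and signals near background bound what the dimmest genes can show.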
